A study of Saccharomyces cerevisiae with 12 samples.

Results

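The comparison of the Rpd3-2SA mutant with wild type (WT) in glucose rested on 6 of the 12 RNA sequencing libraries of the series, 3 from Rpd3-2SA cells and 3 from WT cells. It covered all 7127 features of the deposited count table, of which 6085 had enough counts to be tested. The mutant, written 2SA below, and WT are both labelled as BY4741, a haploid budding yeast strain of mating type a. This strain is known to lack LEU2, MET17 and URA3 and to have no working HIS3. Cells of both genotypes had been grown to mid-log phase in YPD, a rich medium whose sugar is glucose. The other 6 libraries, 3 of 2SA and 3 of WT from sucrose cultures, entered the same fit. The title of the series speaks of phosphorylation of Rpd3, but its labels spell out neither the 2SA change nor how the strain was made, nor whether it was 1 clone. Values are CPM, counts scaled to a common library size with edgeR's TMM factors, a measure of relative RNA level that is not divided by gene length. Levels are therefore set side by side between libraries, not between genes.

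Rpd3 is a histone deacetylase, an enzyme that takes acetyl groups off histone tails, and it works in complexes built around the scaffold protein Sin3. In the large complex, DNA-binding proteins such as Ume6 bring it to promoters, where it keeps genes of meiosis, arginine breakdown and phospholipid synthesis low in growing cells. A smaller complex with Rco1 and Eaf3 acts inside transcribed genes. Yeast cells without Rpd3 are also known for stronger silencing of genes placed near chromosome ends.

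Totals of the 6 glucose libraries ran from 22048015 to 25252287. The RPD3 gene (YNL330C, chromosome XIV, 18001 to 19302) had 125, 108 and 101 CPM in 2SA libraries 1, 2 and 3, against 136, 102 and 90.7 CPM in WT libraries 1, 2 and 3. These ranges overlapped, with a log2 fold change of 0.04 ± 0.08 (SE), and counts over the whole gene cannot check the 2SA change. The markers of mating type a were expressed in every library, and MF(ALPHA)1, a marker of mating type alpha, had at most 7 counts in any. Of the other alpha markers, MF(ALPHA)2 had 84 to 152 counts and SAG1 873 to 1755 counts in every library, with both genotypes spread over these ranges. The alpha-specific receptor gene STE3 had 73 counts in WT glucose library 1 and 110 in WT sucrose library 1, against at most 6 in each of the other 10 libraries. Of the genes that BY4741 lacks, MET17 had 0 counts and LEU2 had 1 count over all 12 libraries. URA3 averaged 402 ± 14.0 CPM in 2SA and 448 ± 67.1 CPM in WT (SD, n = 3 each), which goes against the strain label in both genotypes. HIS3, whose annotation overlaps another feature, averaged 53.1 ± 14.7 CPM in 2SA and 48.6 ± 8.99 CPM in WT. Counts over a gene do not show whether its copy works.

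Libraries of the same number resembled each other across genotypes. Deviations from the group means, taken over features, gave an r of 0.654 between 2SA and WT number 1, 0.610 for number 2 and 0.545 for number 3. Between libraries of different numbers the same r lay between −0.456 and 0.0500. The first principal component held 49.0% of the variance in glucose and set apart number 1, at −17.2 for 2SA and −31.2 for WT, while the other 4 libraries lay between 9.25 and 16.4. The plan of the comparison named the same numbers as pairs, so a feature was tested with each such pair as a block. The result without the block is given beside it. A feature was called when its Benjamini-Hochberg adjusted p in edgeR's quasi-likelihood test was under 0.05 and its fold change over 1.5, the limits named in the series' design text.

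In glucose, 2SA differed from WT in a small set of features, most of them lower and most of them near chromosome ends. Of the 6085 features tested, 29 were called (0.477%), 22 of them lower (0.362%) and 7 higher (0.115%) in 2SA. The lower features held genes of phosphate starvation, a vitamin B6 synthesis gene, an allantoin permease and several families found near chromosome ends. Among the higher ones were both enzymes of arginine breakdown, another vitamin B6 gene and 3 reading frames of Ty retrotransposons.

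Most of the transcriptome lay close to WT. The median log2 fold change of all tested features was 0.01, with quartiles of −0.09 and 0.11. Among the 5147 features with a mean of 10 CPM or more, 98.6% were within 1.5-fold of WT. In such bulk cultures, fewer cells expressing a gene and less RNA per cell cannot be told apart. Features called lower had low CPM, with a median of 4.61 CPM in 2SA and 16.3 CPM in WT. All tested features had medians of 69.5 CPM in 2SA and 67.9 CPM in WT. Since CPM is not divided by gene length, this sets scaled counts side by side, not RNA levels of genes.

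All 22 features called lower were lower in 3 of 3 pairs, as were 15.6% of all tested features, and all 7 called higher were higher in 3 of 3 pairs, as were 18.4%. In 21 of the 22 lower features every 2SA library lay below every WT library, which held for 3.75% of all tested features. RTC2 was the exception. All 7 higher features had every 2SA library above every WT library, against 3.6% of tested features. Both number 1 libraries tended to be high: the 2SA library 1 was the highest of the 3 in 15 of the 22 lower features and the WT library 1 in 16. Over all tested features these shares were 42.7% for 2SA and 40.9% for WT. Within pairs 1, 2 and 3 the 22 lower features had median log2 differences of −1.62, −1.38 and −1.40.

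Without the block, 5 features were called (0.0822%), all of them among the 29: SNZ3, ADH7 and YIL171W were lower, and YDR365W-B and ETS1-1 were higher. The block lowered the common dispersion to 0.0134, against 0.0719 without it. With 1 pair of libraries left out, 15, 12 and 11 of the 29 calls remained without pairs 1, 2 and 3. Called in all 3 of those fits were SNZ3, GEX2, ADH7, IRC4, PHO11, COS7, YDR365W-B and ETS1-1. Called in none of them were YOL160W, YIR042C, HXT12, COS5, DFP4, PHO12, CAR1, CAR2, SNO1 and YDR261C-D.

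**Figure D1:**
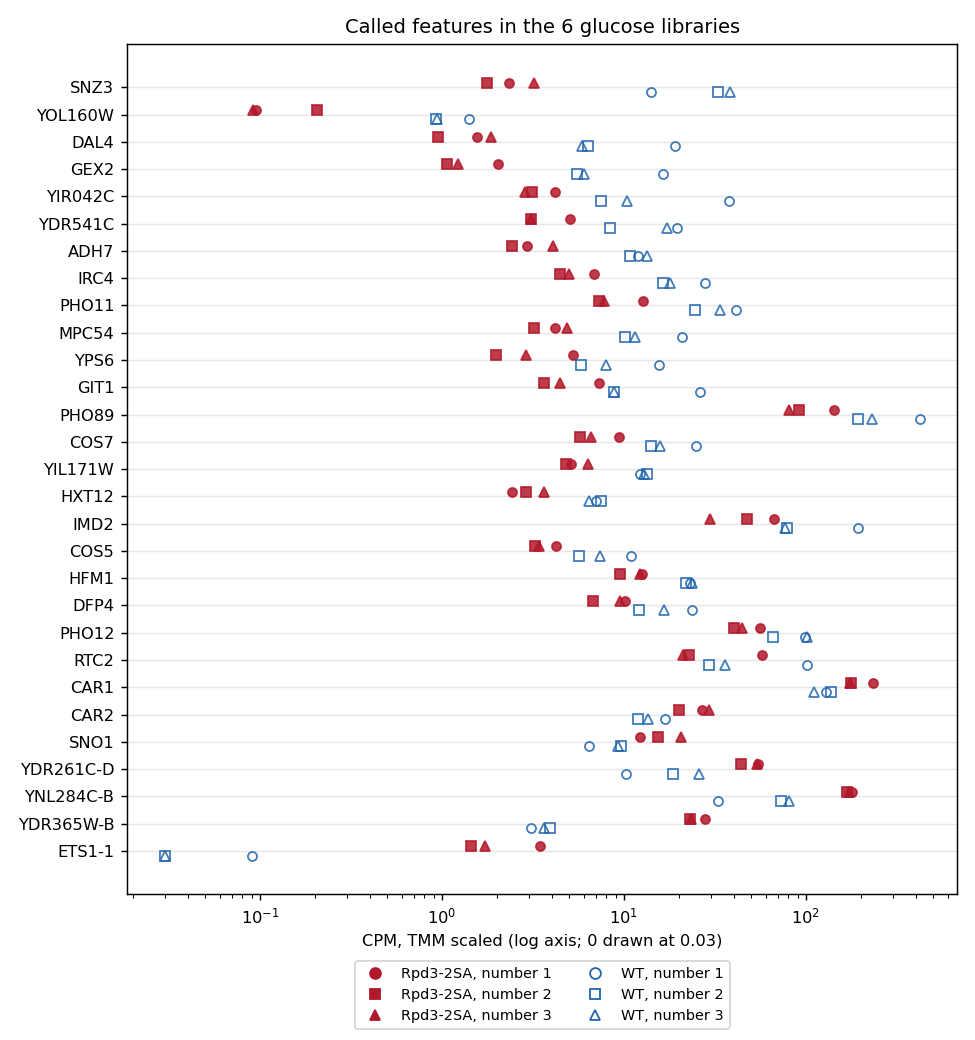
Level of each of the 29 called features in the 6 glucose libraries, in CPM on a log axis, with filled symbols for Rpd3-2SA, open symbols for WT and 1 symbol shape per replicate number. Filled and open symbols lie apart in all features but RTC2, and the open circle of WT library 1 is often the farthest to the right.

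The phosphate starvation genes are switched on by the transcription factor Pho4 when phosphate runs short; they encode secreted acid phosphatases, phosphate transporters and enzymes of polyphosphate storage. Pho4 is known to bind CACGTG and, more weakly, CACGTT. In the 300 bases from 400 to 101 before the start codon, at least 1 of these motifs stood in 17 of 18 listed genes (94.4%), against 13.9% of all 5988 such windows. CACGTG alone stood in 13 of the 18 (72.2%), against 4.56% of all windows. CACGTG is its own reverse complement, CACGTT was also searched as AACGTG, and the 2 motifs cannot overlap. The windows of PHO11, PHO89 and GIT1, 3 of the 4 called genes, and of PHO5, the best studied member, are shown because they differ in these motifs. They are written 5′ to 3′ in the direction of the gene, from the RefSeq R64 genome (sacCer3 coordinates), with motif matches in capitals. PHO11 is at chrI:225060-225359, plus strand, PHO89 at chrII:798623-798922, minus strand, GIT1 at chrIII:298706-299005, minus strand and PHO5 at chrII:431052-431351, minus strand.
PHO11: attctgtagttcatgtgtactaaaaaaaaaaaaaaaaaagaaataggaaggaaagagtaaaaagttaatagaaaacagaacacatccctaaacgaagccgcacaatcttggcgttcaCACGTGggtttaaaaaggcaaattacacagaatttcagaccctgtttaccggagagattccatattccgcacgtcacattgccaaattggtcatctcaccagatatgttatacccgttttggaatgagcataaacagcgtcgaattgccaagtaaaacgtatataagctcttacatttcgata
PHO89: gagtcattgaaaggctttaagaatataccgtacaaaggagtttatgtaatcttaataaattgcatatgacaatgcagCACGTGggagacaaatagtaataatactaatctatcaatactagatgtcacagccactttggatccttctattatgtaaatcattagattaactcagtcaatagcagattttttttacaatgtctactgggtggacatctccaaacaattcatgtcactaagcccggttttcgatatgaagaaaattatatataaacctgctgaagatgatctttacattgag
GIT1: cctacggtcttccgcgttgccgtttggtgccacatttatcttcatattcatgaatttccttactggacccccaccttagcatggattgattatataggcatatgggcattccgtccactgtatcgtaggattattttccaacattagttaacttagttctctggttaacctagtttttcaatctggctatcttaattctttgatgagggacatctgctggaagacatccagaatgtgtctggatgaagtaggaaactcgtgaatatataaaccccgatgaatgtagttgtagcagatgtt
PHO5: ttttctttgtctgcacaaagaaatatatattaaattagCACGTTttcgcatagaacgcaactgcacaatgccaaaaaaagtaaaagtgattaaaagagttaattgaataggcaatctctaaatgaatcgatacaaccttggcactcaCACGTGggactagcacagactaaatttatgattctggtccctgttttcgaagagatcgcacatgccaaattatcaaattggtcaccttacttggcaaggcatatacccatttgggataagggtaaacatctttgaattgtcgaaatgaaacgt

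PHO11 and PHO89 each held 1 CACGTG, beginning 283 and 323 bases before the start codon, and PHO5 held CACGTG at 253 and CACGTT at 362. The window of GIT1 held neither motif. The window of PHO12 matched that of PHO11 at 283 of 300 positions without gaps and held its CACGTG at the same distance. A match is a description of the letters in the window and does not show binding.

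Of the 18 phosphate starvation genes, all of them tested, 4 were called lower in 2SA and none higher, against 0.362% called lower among all features. Their median log2 fold change was −0.28, against 0.01 over all tested features. Lower in 3 of 3 pairs were 14 of the 18, against 15.6% of all tested features. The members ranged from −1.85 to −0.11, so no member lay above 0. Without the block none of the 18 was called. All 4 called members lay within 20 kb of a chromosome end: PHO11 at 3.35 kb, PHO12 at 9.14 kb, PHO89 at 14.7 kb and GIT1 at 18.02 kb. Only 5 of the 18 lay within 30 kb, where 5.76% of all tested features were called lower, and of the other 13 members 0 were called.

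PHO11 (YAR071W, chromosome I, 225460 to 226863), which encodes a secreted acid phosphatase and lies 3.35 kb from the chromosome end, had 12.7, 7.29 and 7.74 CPM in 2SA libraries 1, 2 and 3, against 41.1, 24.5 and 33.6 CPM in WT libraries 1, 2 and 3. Every 2SA library lay below every WT library. The level was 3.61-fold lower in 2SA, with a log2 fold change of −1.85 ± 0.14 (SE) and an adjusted p of 0.00045 with the block and 1.0 without it. PHO12 (YHR215W, chromosome VIII, 552099 to 553502), a copy of it at the end of another chromosome, had 56.1, 40.1 and 44.5 CPM in 2SA libraries 1, 2 and 3, against 98.2, 65.6 and 101 CPM in WT libraries 1, 2 and 3. Here too the groups did not overlap, and the log2 fold change was −0.90 ± 0.13 (adjusted p = 0.0238, and 1.0 without the block). The 2 genes are 99.7% identical over 1404 bases, so reads may have been assigned to either, and their separate values are uncertain.

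PHO89 (YBR296C, chromosome II, 796798 to 798522), the gene of a phosphate transporter driven by sodium, had 143, 91.7 and 81.1 CPM in 2SA libraries 1, 2 and 3, against 422, 193 and 232 CPM in WT libraries 1, 2 and 3. WT library 1 was far above the other WT libraries, but no 2SA library reached any WT library. Its log2 fold change was −1.38 ± 0.15 (adjusted p = 0.00488, and 0.284 without the block). GIT1 (YCR098C, chromosome III, 297049 to 298605), a permease for glycerophosphoinositol, had 7.31, 3.62 and 4.46 CPM in 2SA libraries 1, 2 and 3, against 26.1, 8.85 and 8.79 CPM in WT libraries 1, 2 and 3. Again WT library 1 stood highest, and the highest 2SA library, also number 1, stayed below the lowest WT library. The log2 fold change of GIT1 was −1.39 ± 0.19 (adjusted p = 0.0188, and 0.771 without the block).

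The other 14 members were not called. PHO5, the main repressible acid phosphatase gene, had 93.0, 34.1 and 32.5 CPM in 2SA, against 67.5, 43.5 and 87.6 CPM in WT, and the groups overlapped (log2 −0.43 ± 0.34, adjusted p = 0.712); PHO5 has near copies in PHO3, PHO11 and PHO12, so its value is uncertain. PHO84, the high-affinity transporter gene, had 643, 683 and 383 CPM in 2SA, against 881, 721 and 496 CPM in WT, lower in 3 of 3 pairs at log2 −0.30 ± 0.12 (adjusted p = 0.421). PHM6 had a log2 fold change of −0.93 ± 0.25 and SPL2, which encodes an inhibitor of low-affinity phosphate uptake, one of −0.45 ± 0.16, with adjusted p of 0.225 and 0.357. Genes of the polyphosphate polymerase complex, VTC1, VTC2, VTC3 and VTC4, lay between −0.29 and −0.21.

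Regulators of the phosphate pathway and the low-affinity transporters showed no such shift. Of 10 listed genes 0 were called, their median log2 fold change was 0.02, and in no gene did all 3 pairs point the same way. PHO4, the activator, had 41.9, 57.2 and 54.4 CPM in 2SA, against 43.3, 50.9 and 56.2 CPM in WT, and its libraries overlapped (log2 0.03 ± 0.10). The kinase gene PHO85 was at 0.01 ± 0.10, the cyclin gene PHO80 at −0.03 ± 0.10 and the low-affinity transporter gene PHO90 at 0.33 ± 0.16. PHO81, the inhibitor of that kinase and itself a target of Pho4, was counted among the starvation genes and lay at −0.21 ± 0.07 (adjusted p = 0.364).

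Of the 10 vitamin B6 genes, all tested, SNZ3 was called lower and SNO1 higher, with a median log2 fold change of 0.11 over the 10; among all tested features 0.362% were called lower and 0.115% higher. The SNZ proteins and their SNO partners form the enzyme that makes pyridoxal phosphate, and each SNZ gene lies beside a SNO gene that is read the other way. SNZ3 (YFL059W, chromosome VI, 11363 to 12259), 11.4 kb from a chromosome end, had 2.33, 1.77 and 3.19 CPM in 2SA libraries 1, 2 and 3, against 14.1, 33.0 and 38.4 CPM in WT libraries 1, 2 and 3. It fell furthest of the called features, by 11.2-fold, and no 2SA library came near the lowest WT library, which was number 1. Its log2 fold change was −3.49 ± 0.30 (adjusted p = 0.00112, and 0.021 without the block). SNZ3 and SNZ2 are 99.3% identical over 897 bases, so their separate values are uncertain.

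SNO1 (YMR095C, chromosome XIII, 457285 to 457959), which lies 457 kb from an end and has no near copy, had 12.2, 15.4 and 20.5 CPM in 2SA libraries 1, 2 and 3, against 6.41, 9.68 and 9.32 CPM in WT libraries 1, 2 and 3. The lowest 2SA library exceeded the highest WT library, and the log2 fold change was 0.92 ± 0.14 (adjusted p = 0.0314, and 0.748 without the block). Its neighbour SNZ1 had 118, 91.1 and 149 CPM in 2SA, against 79.3, 60.0 and 75.1 CPM in WT, also without overlap, at log2 0.72 ± 0.13 with an adjusted p of 0.0602 that missed the limit. The copies near chromosome ends lay on the other side of 0 or were too variable to place. SNZ2 was at −1.04 ± 0.22 (adjusted p = 0.106) and SNO2 at −0.998 ± 0.18 (adjusted p = 0.0602). SNO2 and SNO3 are 99.7% identical over 669 bases, so their separate values are uncertain too. SNO3, beside SNZ3, had 1.33, 1.24 and 2.00 CPM in 2SA, against 6.45, 0.389 and 0.312 CPM in WT; WT library 1 lay far above all others and the estimate was 0.14 ± 1.09. The other 4 genes of the list, which include the pyridoxamine phosphate oxidase gene PDX3 and the pyridoxine transporter gene TPN1, lay between 0.07 and 0.18.

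In the cluster of allantoin genes on chromosome IX, where yeast takes up and breaks down allantoin as a nitrogen source, the permease gene DAL4 was called. DAL4 (YIR028W, chromosome IX, 408468 to 410375), 29.5 kb from the end, had 1.57, 0.947 and 1.87 CPM in 2SA libraries 1, 2 and 3, against 19.1, 6.32 and 5.89 CPM in WT libraries 1, 2 and 3. The groups were apart, with WT library 1 well above the other WT libraries. The log2 fold change was −2.68 ± 0.38 (adjusted p = 0.0217, and 0.284 without the block). Both neighbours had lower values that were not called: DAL1, the allantoinase gene, was at −1.81 ± 0.50 (adjusted p = 0.24) and DAL2, the allantoicase gene, at −0.52 ± 0.12 (adjusted p = 0.166). DCG1, next in the row, was at −1.27 ± 0.45, while DAL7, a malate synthase gene, and DAL3, the ureidoglycolate lyase gene, further towards the end, were at 0.00 ± 0.12 and −0.02 ± 0.23. DUR1,2, the urea amidolyase gene on chromosome II, had the highest value of the list, 0.51 ± 0.15 (adjusted p = 0.257). Of the 12 listed genes 11 were tested, 1 was called lower and 0 higher, and their median was −0.02. Among all tested features 0.362% were called lower and 0.115% higher. The repressor gene DAL80 was too low to test, and the regulator genes DAL81 and DAL82 and the allantoate permease gene DAL5 lay between −0.08 and 0.16.

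The genes of both enzymes that break down arginine were called higher in 2SA with the block. Neither was called in any of the fits with 1 pair left out. CAR1 (YPL111W, chromosome XVI, 339944 to 340945) encodes arginase and CAR2 (YLR438W, chromosome XII, 1012501 to 1013775) ornithine aminotransferase, and repression of both through Ume6 and the Rpd3 complex is known. CAR1 had 233, 176 and 174 CPM in 2SA libraries 1, 2 and 3, against 129, 137 and 110.5 CPM in WT libraries 1, 2 and 3. No WT library reached the lowest 2SA library. Its log2 fold change was 0.62 ± 0.10 (adjusted p = 0.0441, and 1.0 without the block). CAR2 had 27.0, 19.97 and 29.4 CPM in 2SA libraries 1, 2 and 3, against 16.9, 11.9 and 13.6 CPM in WT libraries 1, 2 and 3. The groups were again apart, at log2 0.85 ± 0.13 (adjusted p = 0.0314, and 0.756 without the block). CAR2 overlaps the annotated feature YLR437C-A, so reads of the pair cannot be told apart where strand is unknown. Of the other 9 tested genes of arginine, proline and gamma-aminobutyrate breakdown 0 were called. Among all tested features 0.115% were called higher and 0.362% lower. The gamma-aminobutyrate permease gene UGA4 had the lowest value, −0.91 ± 0.19 (adjusted p = 0.103), and the median of all 11 was 0.04.

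The URS1 element, to which Ume6 binds, has the core GCCGCC. It stood, on either strand (also searched as GGCGGC), in 6.10% of all 5988 windows and in 10 of 24 listed genes repressed through Ume6 and Rpd3 (41.7%). CAR1 held it 155 bases before the start codon, and the window of CAR2 held none. The cores of CAR1 and of 3 meiotic genes are shown with 12 bases on either side, 5′ to 3′ in the direction of the gene with the core, on either strand, in capitals, since the values of these genes lay on both sides of 0. CAR1 is at chrXVI:339777-339806, plus strand, HOP1 at chrIX:226419-226448, plus strand, DMC1 at chrV:548271-548300, plus strand and REC8 at chrXVI:571545-571574, minus strand (RefSeq R64).
CAR1: cacttagcggtaGCCGCCgaggggtctaaa
HOP1: gtttttaacctgGGCGGCtaaattgtactt
DMC1: gaccggaaaataGCCGCCcaaggataaact
REC8: gaacttgacttcGGCGGCaaaccaatatat

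CAR1 and CAR2 were the only called members of that list, where 0.115% of all tested features were called higher. Its 24 genes, all tested, had a median log2 fold change of 0.07, against 0.01 over all features; 7 were higher and 6 lower in 3 of 3 pairs. HOP1, a protein of meiotic chromosome axes, was at 0.36 ± 0.30 and the meiotic recombinase gene DMC1 at −0.46 ± 0.14. The meiotic cohesin gene REC8 had the lowest value, −0.78 ± 0.25, with an adjusted p of 0.321. REC102, needed for meiotic double-strand breaks, had 21.3, 21.4 and 27.0 CPM in 2SA, against 11.3, 15.7 and 17.4 CPM in WT, without overlap, at 0.66 ± 0.16 (adjusted p = 0.153). IME1, the master regulator of meiosis, had 25.6, 26.7 and 24.4 CPM in 2SA, against 35.6, 36.9 and 30.2 CPM in WT, below WT in every library, at −0.42 ± 0.09 (adjusted p = 0.113). INO1, the inositol synthesis gene, was at 0.28 ± 0.36 and IME2, a meiotic kinase gene, at 0.05 ± 0.12, and their libraries overlapped. Of the 14 genes of Rpd3 complex subunits and recruiters 0 were called, with values between −0.11 and 0.22. SIN3 lay at −0.03 ± 0.07 and UME6 at 0.07 ± 0.11.

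**Figure D2:**
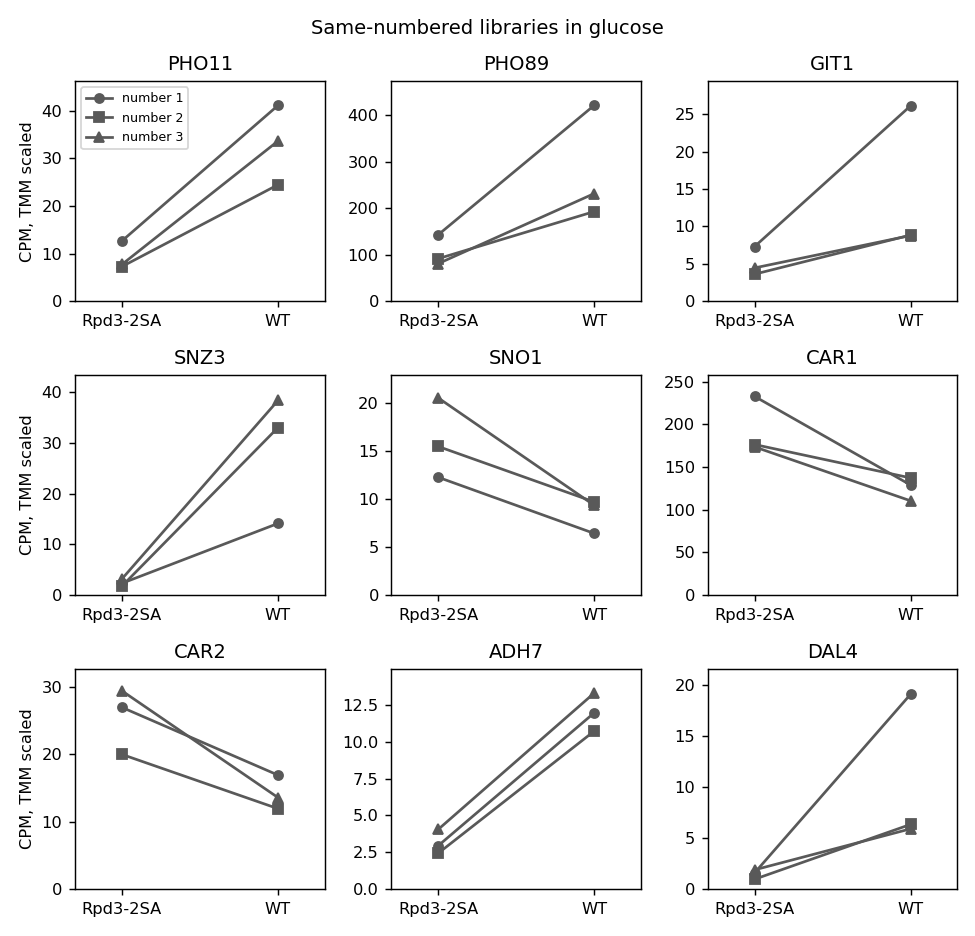
Levels of 9 called genes in CPM for each same-numbered pair of libraries in glucose, with Rpd3-2SA at the left and WT at the right of each panel and 1 line per pair. All 3 lines rise towards WT in PHO11, PHO89, GIT1, SNZ3, ADH7 and DAL4 and fall towards WT in SNO1, CAR1 and CAR2.

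The features called lower lay mostly near chromosome ends. Of the 22, 20 were within 30 kb of an end, 18 of them within 20 kb and 9 within 10 kb. Of the tested features on nuclear chromosomes, 347 lay within 30 kb of an end and 5735 further in. Of the 7 higher features 0 were within 30 kb, which says little for so few features, since most tested features lie further in. Within 10 kb of an end the 87 tested features had a median log2 fold change of −0.52, and 9 of them were called lower (10.3%). From 10 to 20 kb the median of 119 features was −0.16 with 9 called lower (7.56%), and from 20 to 30 kb the median of 141 was −0.04 with 2 called lower. Of 314 features between 30 and 50 kb 0 were called lower, and beyond 100 kb, where 4601 features had a median of 0.02, 2 were. The median within 10 kb was −0.76, −0.31 and −0.45 in pairs 1, 2 and 3, and −0.52 without the block.

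Position and sequence copies went together. Near copies, meaning another feature at least 80% identical over at least 100 bases, were found for 55 of the 87 tested features within 10 kb of an end and for 7.02% of all tested features. Among the 32 without a near copy the median was −0.47, and from 10 to 20 kb it was −0.08 over 73 features. Features near ends also had low CPM, not corrected for gene length, with a median of 2.61 CPM in 2SA and 4.39 CPM in WT within 10 kb. The parts that copies and low CPM play in the differences were not tested. The 20 features were spread over 14 of the 32 chromosome ends, and at 27 of the 32 ends the median of the features within 30 kb was below 0.

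**Figure D3:**
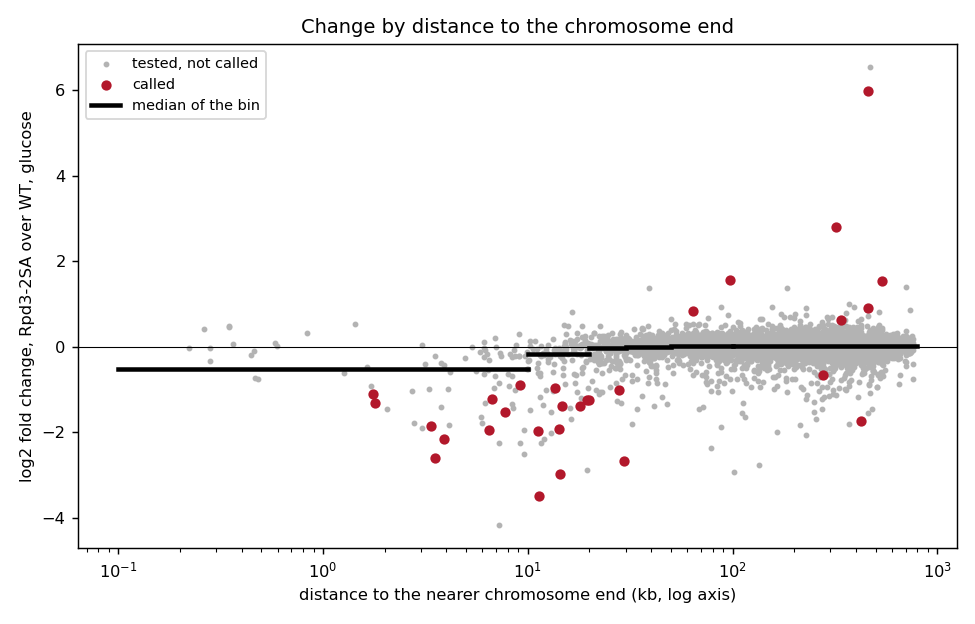
Log2 fold change of 2SA over WT in glucose for each tested feature against its distance to the nearer chromosome end in kb on a log axis, with called features in red and the median of each distance range as a black bar. The bars lie at −0.52 within 10 kb and −0.16 from 10 to 20 kb and near 0 further in, and the red points below 0 lie mostly at the left.

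The features called lower had 33 different uncalled neighbours that were tested. Of these, 27 were below 0, with a median log2 fold change of −0.40, and among all tested features 69.5% were below 0 within 30 kb of an end and 82.8% within 10 kb. An unadjusted p under 0.05 below 0 was found for 14 of the 33 and one above 0 for 0, where 28.5% of the features within 30 kb and 5.70% of all tested features had such a p below 0. The shares near ends include the called features themselves. Not all of the neighbours lie near an end: those of RTC2 and MPC54, which lie 276 and 424 kb from one, are among the 33. Nothing particular to neighbours was tested. Neighbours were called together at 3 places. IRC4 (YDR540C, chromosome IV, 1517136 to 1517675) had 6.83, 4.45 and 5.01 CPM in 2SA libraries 1, 2 and 3, against 27.9, 16.4 and 17.9 CPM in WT libraries 1, 2 and 3. Next to it YDR541C (chromosome IV, 1519664 to 1520698), annotated as a carbonyl reductase, had 5.08, 3.09 and 3.10 CPM in 2SA libraries 1, 2 and 3, against 19.7, 8.37 and 17.1 CPM in WT libraries 1, 2 and 3. In both, the highest 2SA library lay below the lowest WT library. The log2 fold changes were −1.92 ± 0.11 for IRC4 (adjusted p = 0.00012, and 0.113 without the block) and −1.96 ± 0.23 for YDR541C (adjusted p = 0.00643, and 0.255 without it).

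IMD2 (YHR216W, chromosome VIII, 554396 to 555967), beside PHO12, encodes an IMP dehydrogenase, an enzyme of guanine nucleotide synthesis. It had 67.0, 47.5 and 29.8 CPM in 2SA libraries 1, 2 and 3, against 193, 78.8 and 77.0 CPM in WT libraries 1, 2 and 3. WT library 1 was far the highest, and the nearest 2SA library was its pair partner, still below the lowest WT library. The log2 fold change was −1.21 ± 0.18 (adjusted p = 0.026, and 0.756 without the block). Its relatives IMD3 and IMD4, far from chromosome ends, were at −0.04 ± 0.09 and 0.06 ± 0.16, and with near copies among them these values are uncertain.

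At the third place, YIL171W and HXT12 (YIL170W, chromosome IX, 19847 to 21220) are annotated as adjoining pseudogenes of the hexose transporter family. YIL171W had 5.12, 4.82 and 6.37 CPM in 2SA, against 12.2, 13.4 and 12.8 CPM in WT, and HXT12 had 2.42, 2.88 and 3.64 CPM in 2SA, against 7.04, 7.49 and 6.42 CPM in WT. WT libraries of both lay close together and above all 2SA libraries. YIL171W was at −1.24 ± 0.16 (adjusted p = 0.0111, and 0.0244 without the block) and HXT12 at −1.24 ± 0.20 (adjusted p = 0.0314, and 0.255 without it). Both have near copies in HXT9 and HXT11, which were lower but not called, at −2.89 ± 0.53 and −0.94 ± 0.17 (adjusted p = 0.0602 each). The main glucose transporter genes HXT1, HXT2, HXT3 and HXT4 lay between −0.14 and 0.32.

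ADH7 (YCR105W, chromosome III, 309070 to 310155), an alcohol dehydrogenase gene that uses NADPH and has no near copy, had 2.94, 2.43 and 4.05 CPM in 2SA libraries 1, 2 and 3, against 11.99, 10.7 and 13.3 CPM in WT libraries 1, 2 and 3. The WT libraries differed little and lay well above all 2SA libraries, for a 3.87-fold lower level in 2SA. The log2 fold change was −1.95 ± 0.15 (adjusted p = 0.00045, and 0.00691 without the block). Of the other 9 alcohol dehydrogenase genes 0 were called. ADH5 had the next lowest value, −0.50 ± 0.15 (adjusted p = 0.267), while ADH1, the main fermentative enzyme, was at 0.01 ± 0.14 and ADH2, which is repressed by glucose, at 0.40 ± 0.25. ADH3, ADH4 and ADH6 lay between −0.16 and 0.12.

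GEX2 (YKR106W, chromosome XI, 661442 to 663289), a glutathione exchanger 3.53 kb from an end, had 2.04, 1.07 and 1.23 CPM in 2SA libraries 1, 2 and 3, against 16.4, 5.50 and 6.07 CPM in WT libraries 1, 2 and 3. The groups were apart although WT library 1 was well above the others, and the log2 fold change was −2.59 ± 0.23 (adjusted p = 0.00121, and 0.255 without the block). Its near copy YCL073C (GEX1), 99.0% identical over 1848 bases, was too low to test. Of the iron and siderophore transport genes, among which GEX2 was listed, the other 16 tested had 0 calls.

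COS genes encode related membrane proteins and lie close to chromosome ends. Of the 11 members 10 were tested, 2 were called lower and none higher, and all 10 had values below 0, with a median of −0.95. Among all tested features 0.362% were called lower, and among those within 10 kb of an end, where most COS genes lie, 10.3% were called lower, 82.8% were below 0 and the median was −0.52. COS7 (YDL248W, chromosome IV, 1802 to 2953) had 9.35, 5.72 and 6.60 CPM in 2SA, against 24.9, 14.0 and 15.7 CPM in WT, and COS5 (YJR161C, chromosome X, 742848 to 743999) had 4.22, 3.25 and 3.41 CPM in 2SA, against 10.9, 5.69 and 7.41 CPM in WT. In both genes the 2SA libraries stayed below all WT libraries. COS7 was at −1.32 ± 0.11 (adjusted p = 0.000915, and 0.756 without the block) and COS5 at −1.11 ± 0.17 (adjusted p = 0.0314, and 0.756 without it). They are 95.6% identical to each other over 1152 bases, and 7 of the 10 have near copies, so values of single members are uncertain. COS6 and COS9 were nearest to 0, at −0.18 ± 0.14 and −0.22 ± 0.16.

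The remaining features called lower near ends were 5 genes without a shared role. YPS6 (YIR039C, chromosome IX, 430498 to 432111), an aspartyl protease gene, had 5.27, 1.98 and 2.91 CPM in 2SA, against 15.6, 5.79 and 7.99 CPM in WT, and YIR042C (chromosome IX, 435273 to 435983), uncharacterised, on the same chromosome arm, had 4.18, 3.13 and 2.87 CPM in 2SA, against 38.0, 7.44 and 10.4 CPM in WT. In both, WT library 1 was the highest and the groups did not overlap. YPS6 has a near copy, 94.7% identical over 493 bases, which leaves its own value uncertain. Their log2 fold changes were −1.52 ± 0.18 (adjusted p = 0.00772, and 1.0 without the block) and −2.15 ± 0.36 (adjusted p = 0.0431, and 0.526 without it). DFP4 (YHL044W, chromosome VIII, 13565 to 14272), a member of the DUP240 family, had 10.2, 6.79 and 9.56 CPM in 2SA, against 23.6, 12.1 and 16.6 CPM in WT, and HFM1 (YGL251C, chromosome VII, 27921 to 31636), a meiotic DNA helicase gene, had 12.6, 9.55 and 12.2 CPM in 2SA, against 22.9, 21.9 and 23.6 CPM in WT. HFM1 had WT libraries close together, and in both genes the groups were apart. DFP4 was at −0.95 ± 0.14 (adjusted p = 0.0229) and HFM1 at −1.002 ± 0.12 (adjusted p = 0.00643), with 1.0 and 0.284 without the block. YOL160W (chromosome XV, 14313 to 14654), uncharacterised, rested on 2, 5 and 2 counts in 2SA libraries and 31, 19 and 21 in WT libraries, with log2 −2.97 ± 0.42 (adjusted p = 0.0217, and 0.255 without the block).

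Away from the ends, 2 features were called lower. MPC54 (YOR177C, chromosome XV, 665785 to 667179) encodes a protein of the meiotic spindle pole body and lies 424 kb from an end. It had 4.18, 3.21 and 4.87 CPM in 2SA libraries 1, 2 and 3, against 20.9, 10.1 and 11.5 CPM in WT libraries 1, 2 and 3. The groups did not overlap, at log2 −1.74 ± 0.23 (adjusted p = 0.0146, and 0.284 without the block). RTC2 (YBR147W, chromosome II, 536575 to 537465), a transporter gene for cationic amino acids, had 57.7, 22.6 and 21.1 CPM in 2SA libraries 1, 2 and 3, against 102, 29.2 and 35.8 CPM in WT libraries 1, 2 and 3. Both number 1 libraries were high and the groups overlapped, since 2SA library 1 exceeded 2 of the 3 WT libraries, while each 2SA library was below its own partner. The log2 fold change was −0.65 ± 0.10 (adjusted p = 0.0314, and 1.0 without the block). Left without WT library 1 and the block, the estimate for RTC2 was 0.057.

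Among the features called higher were 3 gag-pol frames of Ty retrotransposons, mobile elements that copy themselves through RNA. YDR365W-B (chromosome IV, 1206997 to 1212265) had 27.997, 23.1 and 23.2 CPM in 2SA libraries 1, 2 and 3, against 3.09, 3.94 and 3.61 CPM in WT libraries 1, 2 and 3. The groups were far apart and even within themselves, for a 6.97-fold higher level in 2SA at log2 2.80 ± 0.17 (adjusted p = 0.00012, and 0.000376 without the block). YNL284C-B (chromosome XIV, 96964 to 102232) had 178, 169 and 172 CPM in 2SA, against 32.7, 72.9 and 80.3 CPM in WT, and YDR261C-D (chromosome IV, 987534 to 992349) had 54.8, 43.7 and 53.9 CPM in 2SA, against 10.2, 18.5 and 25.9 CPM in WT. WT library 1 was the lowest in both, and no WT library reached 2SA. They were at 1.57 ± 0.25 (adjusted p = 0.0346, and 0.255 without the block) and 1.55 ± 0.26 (adjusted p = 0.0459, and 0.756 without it).

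The Ty elements as a family did not share that direction. Of 91 Ty reading frames, 46 were tested, 3 were called higher and 0 lower, and their median log2 fold change was −0.26. Among all tested features 0.115% were called higher and 0.362% lower. The Ty median was 0.09 in pair 1, −0.45 in pair 2 and −0.46 in pair 3. Of the 46, 13 were lower (28.3%) and 4 higher (8.70%) in 3 of 3 pairs, against 15.6% and 18.4% of all tested features. YDR210C-D, for example, had 22.02, 25.3 and 24.2 CPM in 2SA, against 26.7, 55.8 and 54.6 CPM in WT, at −0.87 ± 0.18 (adjusted p = 0.0878). All 46 have near copies elsewhere in the genome, so the counts of a single element depend on how reads with several matches were placed, for which no source used here has the rule. Copy number of these elements in the strains was not measured.

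ETS1-1 (chromosome XII, 457733 to 458432) is an external spacer that is cut out of the ribosomal RNA precursor, and it has an identical annotated copy, ETS1-2. It had 73, 35 and 38 counts in 2SA libraries, against 2, 0 and 0 in WT libraries. Pooled, 146 counts in 2SA against 2 in WT give a ratio of 70.5 after scaling, with an exact 95% interval of 19.2 to 587 that covers counting error only. Its adjusted p was 0.00131, and 0.0112 without the block. ETS1-2 had 1.04, 0.329 and 0.137 CPM in 2SA, against 0, 0 and 0 CPM in WT and was not called (adjusted p = 0.0634). The sources used here do not say whether ribosomal RNA was removed.

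Several other groups of genes gave no call. Only 0.477% of all tested features were called, so 0 calls say little about lists as short as these. The same holds for the other lists with 0 calls. Glycolysis genes (20 tested) had a median log2 fold change of 0.02, respiratory chain genes (32) 0.01, histone genes (10) 0.10 and cytosolic ribosomal protein genes (138) −0.05, with 0 called in each. Of 28 general stress genes 0 were called, with a median of −0.11. Genes of purine synthesis (12 tested), arginine synthesis (10), gluconeogenesis and the glyoxylate cycle (12) and thiamine (20) likewise had 0 calls, with medians of −0.01, 0.03, 0.03 and 0.10. SUC2, the invertase gene, had 79.0, 25.7 and 28.04 CPM in 2SA, against 58.7, 22.1 and 29.4 CPM in WT, overlapping, at 0.20 ± 0.12 (adjusted p = 0.618). The hexose transporters and sensors (17 tested) had a median of −0.25 and genes of sucrose and alpha-glucoside use (12 tested) −0.23, and 0 were called in either list. Their lowest members, HXT9, HXT15, MPH2 and MPH3, lay within 20 kb of chromosome ends and were at −2.89 ± 0.53, −2.25 ± 0.43, −1.77 ± 0.35 and −1.64 ± 0.35. All of them have near copies, and MPH2 and MPH3 are 99.9% identical over 1809 bases, so their separate values are uncertain. HXT9, HXT15 and MPH2 also had low means, 0.425, 0.464 and 0.372 CPM in 2SA, against 3.07, 2.43 and 1.35 CPM in WT.

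**Figure D4:**
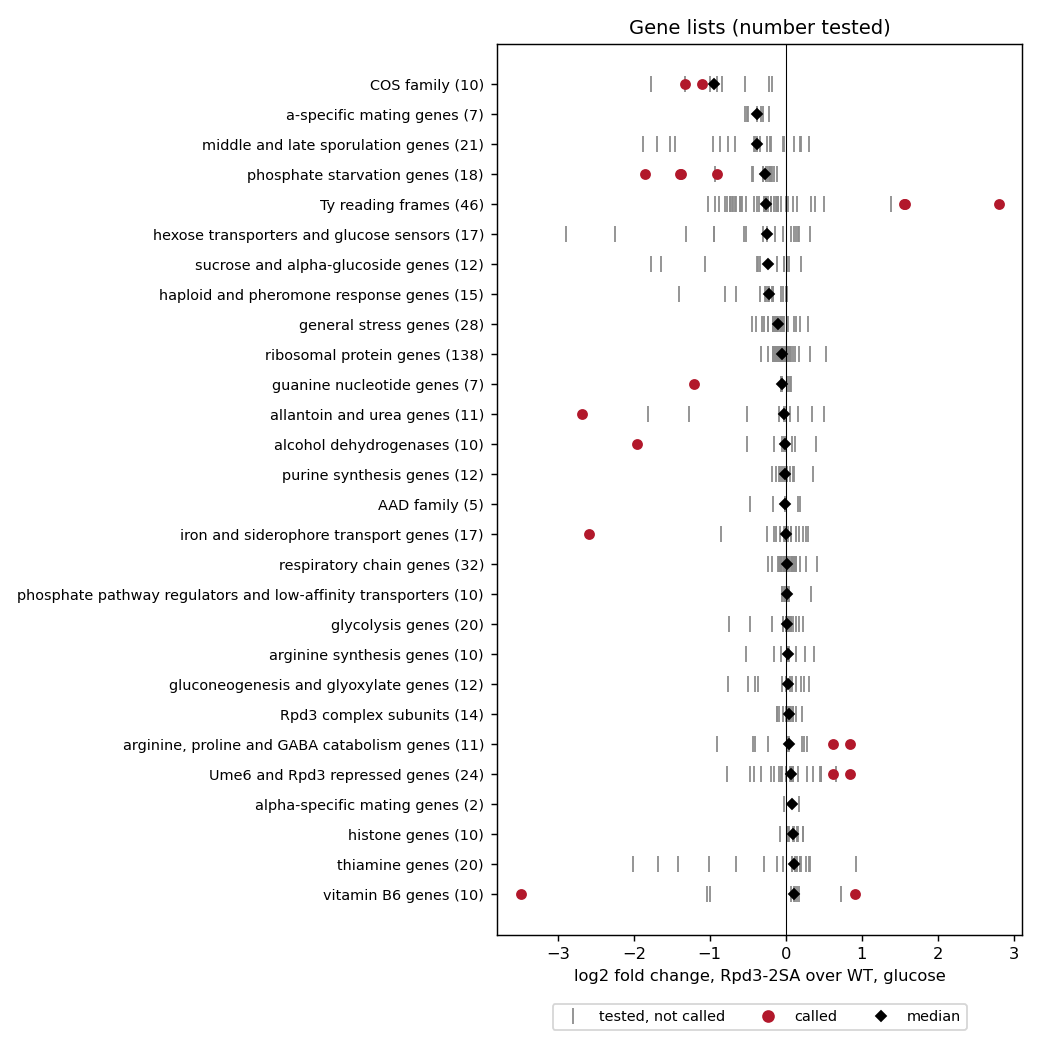
Log2 fold change of 2SA over WT in glucose for the tested members of each gene list (number tested in brackets), with grey ticks for members not called, red points for called members and black diamonds for the median. COS and phosphate starvation genes lie wholly below 0, and CAR1 and CAR2 are the red points to the right among the Ume6 and Rpd3 repressed genes.

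Genes of mating had 0 calls. All 7 a-specific genes, which include the pheromone genes MFA1 and MFA2 and the receptor gene STE2, had values between −0.54 and −0.22, with a median of −0.38. In 4 of the 7 all 3 pairs were lower, which held for 15.6% of all tested features. Of 15 haploid and pheromone response genes 9 were lower in 3 of 3 pairs and none higher in 3 of 3, against 15.6% and 18.4% of all tested features, with a median of −0.22. FUS1, a cell fusion gene that responds to pheromone, had 17.6, 8.36 and 5.28 CPM in 2SA, against 45.2, 17.8 and 18.5 CPM in WT, at −1.41 ± 0.31 (adjusted p = 0.117). WT glucose library 1, which also held the STE3 counts, had the highest FUS1 level, and the part of that library in the difference was not tested. Middle and late sporulation genes (21 tested) had a median of −0.37 with 0 called. Their median was −0.83 in pair 1, −0.27 in pair 2 and 0.11 in pair 3, so pair 3 did not share the direction. That list does not hold MPC54, a gene of the meiotic spindle pole body that was called lower.

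The sucrose libraries showed the 29 features in other cultures of the same strains, but not independently of the glucose ones. WT library 1 stood apart in both sugars: beside STE3, DAL4 had 420 counts in WT glucose library 1 and 445 in WT sucrose library 1, against 102 to 132 in the other 4 WT libraries, and YIR042C had 836 and 847, against 153 to 309. Taken over features, deviations from the group means in glucose and in sucrose had an r of 0.250, −0.195 and 0.335 for 2SA numbers 1, 2 and 3, and of 0.359, −0.0948 and 0.479 for WT numbers 1, 2 and 3. With the number as a block shared over both sugars, 9 of the 29 glucose calls remained and 20 were lost. In sucrose, 98 features were called lower in 2SA than in WT (1.61%) and 14 higher (0.23%). All 29 features had the same sign there as in glucose, and 49.3% of all tested features lay below 0 in sucrose. All 22 features called lower in glucose were also called lower there, and 4 of the 7 called higher were also called higher. The same fit gave both sugars a shared estimate of each feature's spread, so calls in glucose and sucrose are linked. The 26 shared features were 89.7% of the glucose calls and 23.2% of the 112 sucrose calls. The 3 others, CAR1, CAR2 and YDR261C-D, were above 0 in sucrose at 0.33 ± 0.10, 0.30 ± 0.12 and 1.06 ± 0.27 (adjusted p = 0.121, 0.213 and 0.0777).

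SNZ3 was at −3.51 ± 0.30 in sucrose, ADH7 at −1.84 ± 0.14, PHO11 at −2.33 ± 0.16, DAL4 at −2.75 ± 0.39 and SNO1 at 1.11 ± 0.13. A test of the difference between the sugars called 0 features at an adjusted p under 0.05, with 302 at an unadjusted p under 0.05, and called 0 without the block, with 10 at an unadjusted p under 0.05. The lowest adjusted p of that test among the 29 was 0.934, for ETS1-1, which was at 5.98 ± 0.55 in glucose and 2.55 ± 0.36 in sucrose with an unadjusted p of 0.0023 for the difference; with 0 counts in 2 WT glucose libraries, its fitted value in glucose is no bound. A p that misses the limit does not show that the effect was equal in the 2 sugars: for CAR2 the unadjusted p of the difference was 0.0147, and for PHO11 it was 0.051. PHO5 and PHO84, not called in glucose, were at −1.14 ± 0.35 and −0.79 ± 0.12 in sucrose (adjusted p = 0.121 and 0.0147), with unadjusted p of 0.177 and 0.0179 for the difference.

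**Figure D5:**
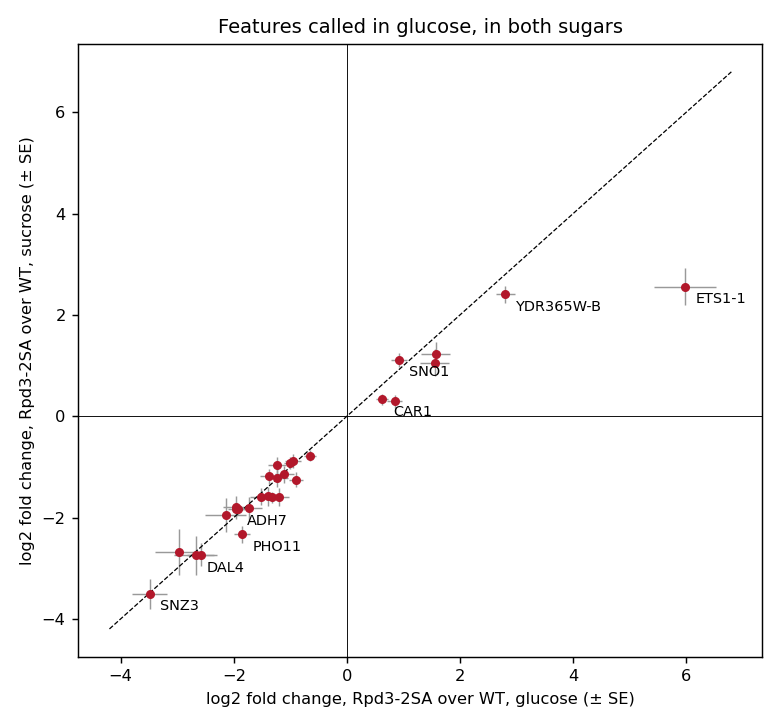
Log2 fold change of 2SA over WT in sucrose (vertical, ± SE) against that in glucose (horizontal, ± SE) for the 29 features called in glucose, with equal values on the dashed line. All 29 points have the same sign in both sugars, and ETS1-1 lies farthest from the line.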

How the data were processed

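The authors deposited 1 table of raw read counts per feature for 12 libraries, whole numbers with no normalization. Reads were aligned with Bowtie 0.12.2 to sacCer3, per the submitters' processing notes. The counting program, its strand setting, its handling of reads with several matches and any removal of ribosomal RNA are in none of the sources used here. Positions are those of the table; 6047 features matched a RefSeq R64 locus tag, and 99.9% of these had the same start.

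Groups and replicate numbers came from the sample titles; the design text calls the replicates biological, but the labels do not say what the numbers share. The plan of the comparison named the same numbers as pairs, and libraries correlated within every pair (values in the report, and 0.603, 0.847 and 0.799 in sucrose). Deviations within a group cancel out. That by itself pulls the r between different numbers down when the r within numbers is high. Counts were fitted in R 4.3.3 with edgeR 4.0.16 (quasi-likelihood F-test, TMM factors 0.922 to 0.996 in glucose, default expression filter), all 12 libraries in 1 fit, with the pair within its carbon source as a block and a 2SA effect per sugar (4 residual degrees of freedom). P-values were adjusted over all 6085 tested features; 1042 were left untested. SE is the log2 fold change divided by the root of F. Adjusted p-values in the text are from edgeR.

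Alternatives used DESeq2 1.42.0, limma 3.58.1, no block, other filters and scalings, and left-out libraries. Near copies were found with BLAST 2.17.0. Scripts were tested on simulated data. No pair of replicates was close to identical (chi-square per degree of freedom at least 89.8). Named are all called features, members of the SNZ, SNO, PHO, CAR, DAL and ADH families, a fixed set of control genes, and list members with the lowest or highest value or a known role, chosen after values were seen. The comparison and the gene lists were chosen with earlier results of these data known.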

Additional observations from a re-analysis of the deposited data

How the results depend on the processing

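With the replicate block, 7 features were called higher and 22 lower. All 29 calls stayed with DESeq2, with its size factors in edgeR, with no filter on low counts and with glucose libraries alone; with a mean of 1 CPM as filter 28 of 28 stayed, YOL160W being untested, and limma voom, added after seeing the data, lost CAR2 (adjusted p = 0.0572). DESeq2 called 12 higher and 68 lower, and glucose libraries alone gave 45 lower. The additive replicate block, with the number shared over both sugars, called 2 higher and 7 lower and kept 9 of the 29. With no replicate block 2 were higher and 3 lower, and 24 of the 29 calls were lost at adjusted p between 0.113 and 1.0. Leaving out 1 pair gave 2 to 5 higher and 10 to 18 lower, with pair 2 or pair 3 left out giving the lowest. Without the block, leaving out 1 library gave 0 to 4 lower and 1 to 2 higher. Counting only features with no near copy and no overlap, a choice made after seeing the data, left 2 higher and 12 lower. With only the features with near copies removed, the median from 10 to 20 kb moved from −0.16 to −0.083. That within 10 kb moved from −0.52 to −0.47. The interaction called 0 features with and without the block.

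Signs changed in genes that were not called, and in RTC2. DAL7 was at −1.1e-04 with DESeq2 size factors, −0.0051 with the additive block, −0.0051 with glucose libraries alone, −0.0057 with limma voom, −0.0015 with a mean of 1 CPM and −0.018 with no block. ADH1 was at −7.7e-04 with glucose libraries alone, and SNO3 at −0.17 with limma voom and −0.65 with no block. With 1 pair left out, or 1 library left out without the block, log2 fold changes ranged on both sides of 0 for these genes: ADH1 −0.085 to 0.086, ADH6 −0.19 to 0.070, DAL3 −0.20 to 0.19, DAL5 −0.057 to 0.17, DAL7 −0.19 to 0.19, HIS3 −0.11 to 0.30, HXT1 −0.50 to 0.26, IME2 −0.16 to 0.24, INO1 −0.025 to 0.53, PHO5 −0.99 to 0.066, RPD3 −0.10 to 0.21, RTC2 −1.34 to 0.057, SNO3 −1.17 to 2.18, SUC2 −0.45 to 0.78, UME6 −0.19 to 0.24. The cause of these changes was not tested. Low counts limit YOL160W, with 2 to 31 counts per glucose library, and ETS1-1, with 0 to 2 in WT.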

Other observations

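Outside the calls, 30 features had an adjusted p under 0.1 and were chosen for mention after their values were seen; 27 were lower in 2SA, 15 of these within 30 kb of a chromosome end, and 3 were higher. SEO1, a putative permease gene 7.23 kb from an end, had 0.142, 0 and 0.0455 CPM in 2SA, against 2.36, 0.535 and 0.669 CPM in WT (log2 −4.17 ± 0.78, adjusted p = 0.0634). GAL2, the galactose permease gene, 290.2 kb from an end, had 3.04, 3.38 and 3.92 CPM in 2SA, against 6.86, 6.71 and 6.25 CPM in WT, with no overlap (log2 −0.94 ± 0.17, adjusted p = 0.0528). THI72, a thiamine transporter gene with near copies, had 11.7, 10.2 and 12.2 CPM in 2SA, against 5.77, 5.79 and 6.34 CPM in WT, with every 2SA library above every WT library (log2 0.93 ± 0.16, adjusted p = 0.0516). The thiamine synthesis genes THI5, THI11 and THI13, which lie within 20 kb of ends, were at −2.02 ± 0.64, −1.42 ± 0.39 and −1.69 ± 0.48 and were not called. Of the 20 tested thiamine genes, 8 have near copies, and the separate values of such members are uncertain. QDR1, a multidrug transporter gene, and AIF1 passed the adjusted p at 0.0346 and 0.0314 but changed by less than 1.5-fold, at −0.57 ± 0.09 and −0.56 ± 0.09.

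AFB1, 229 kb from an end, had 9.06, 7.04 and 11.0 CPM in 2SA, against 31.1, 17.996 and 16.2 CPM in WT (log2 −1.23 ± 0.24, adjusted p = 0.0697), with WT library 1 the highest. It overlaps the annotated feature YLR041W, so reads of the pair cannot be told apart where strand is unknown. The pyruvate kinase gene PYK2 had 107, 49.5 and 52.1 CPM in 2SA, against 216, 76.8 and 78.3 CPM in WT (log2 −0.75 ± 0.16, adjusted p = 0.113), lower in 3 of 3 pairs, while the main pyruvate kinase gene CDC19 was at 0.07 ± 0.15.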
